A study of Rattus norvegicus with 6 samples.

Results

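The cytochrome P450 families 1 to 4 were examined in 6 RNA sequencing libraries of rat liver sinusoidal endothelial cells. Members were taken by symbol, as every gene whose name begins with Cyp, a family number from 1 to 4, a subfamily letter and a gene number. The rule found 55 genes, with 51 distinct symbols, among the 32623 genes listed. The cells were primary liver sinusoidal endothelial cells of Han Wistar rats. They were cultured for 48 h in the Exoliver device, a perfused chamber, beside primary hepatocytes, hepatic stellate cells and hepatic macrophages, with a shear stress of 1.15 dyn/cm2 in both groups. The physiological group was kept at 1 mmHg and the pathological group at 12 mmHg, with 3 libraries each. The sources used here give no genotype, age or sex of the rats. Nothing states that each library came from its own animal or culture, so p-values measure only how these samples vary, which may be technical.

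Cytochrome P450 enzymes are heme proteins of the endoplasmic reticulum that use molecular oxygen and electrons from NADPH, delivered by the reductase encoded by Por, to oxidize their substrates. Families 1 to 3 oxidize drugs, environmental chemicals and steroids, while family 4 mainly hydroxylates fatty acids and eicosanoids. Most are made by hepatocytes, many of them in a zonal pattern with highest levels near the central vein, whereas Cyp1b1 is known as a mainly extrahepatic form of blood vessels and mesenchymal cells.

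Library totals ran from 8925149 to 24025406 counts, and between 8295 and 12405 genes reached 1 CPM (counts scaled to a common library total) in a library. Albumin (Alb), the main plasma protein made by hepatocytes, stood at 56.6, 23840 and 12795 CPM in physiological replicates 1, 2 and 3 and at 155, 301 and 26197 CPM in pathological replicates 1, 2 and 3. The 3 libraries above 1000 CPM, physiological replicates 2 and 3 and pathological replicate 3, are called albumin-high here, and the other 3 albumin-low. Each pressure group thus held both kinds. The 14 hepatocyte markers summed to between 31193 and 62299 CPM in the albumin-high and between 292 and 698 CPM in the albumin-low libraries, with none at 0. The 12 stellate markers summed to 1393 to 1746 CPM in the albumin-high and 434 to 694 CPM in the albumin-low libraries, where Reln gave 388 to 655 CPM. The 11 others summed to 1373 to 1745 CPM and 25.1 to 45.7 CPM, so transcripts of these markers moved with the split as well. The endothelial label was checked on 13 sinusoidal endothelial markers, which were all above 0 in every library and summed to between 922 and 5884 CPM. Of these 13, 7 were higher in every albumin-high than in every albumin-low library, and 0 were lower. The same order held for 7 of the 12 macrophage markers, with 0 lower. Among the genes at 1 CPM or more in some library, 13.4% were higher and 30.2% lower. The split thus went with markers of several cell types. In pathological replicate 2 the macrophage markers summed to 41.7 CPM, against 826 to 1431 CPM elsewhere. In bulk RNA, fewer cells of a type and less RNA per cell cannot be told apart.

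The P450 transcripts fell into 2 main patterns over these libraries, shown here by 3 genes with their promoters. Cyp2c11, an abundant steroid hydroxylase of the liver of male rats, and Cyp1a2, a caffeine- and arylamine-oxidizing enzyme of hepatocytes, were high where albumin was high. Cyp1b1, which oxidizes estradiol and polycyclic hydrocarbons, was high in 2 of the albumin-low libraries. The 250 bases upstream of each RefSeq start site are given from assembly GRCr8, 5′ to 3′ on the strand of the gene, because they differ in the short elements they hold. In Cyp1b1, at chr6:21094315-21094564 on the plus strand, the capitals mark GCGTG or its reverse complement, the core of the element that the aryl hydrocarbon receptor binds. In Cyp2c11, at chr1:246174966-246175215 on the plus strand, and in Cyp1a2, at chr8:66978150-66978399 on the minus strand, they mark TATAAA, the TATA box.
Cyp1b1: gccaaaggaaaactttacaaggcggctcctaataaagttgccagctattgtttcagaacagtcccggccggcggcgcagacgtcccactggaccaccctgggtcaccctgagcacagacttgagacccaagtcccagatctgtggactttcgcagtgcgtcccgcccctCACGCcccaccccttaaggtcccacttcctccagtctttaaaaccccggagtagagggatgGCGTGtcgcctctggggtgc
Cyp2c11: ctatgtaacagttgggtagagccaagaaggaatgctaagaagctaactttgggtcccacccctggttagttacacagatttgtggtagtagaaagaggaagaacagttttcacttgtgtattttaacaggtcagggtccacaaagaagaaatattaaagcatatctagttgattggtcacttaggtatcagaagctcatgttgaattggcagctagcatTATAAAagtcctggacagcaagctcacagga
Cyp1a2: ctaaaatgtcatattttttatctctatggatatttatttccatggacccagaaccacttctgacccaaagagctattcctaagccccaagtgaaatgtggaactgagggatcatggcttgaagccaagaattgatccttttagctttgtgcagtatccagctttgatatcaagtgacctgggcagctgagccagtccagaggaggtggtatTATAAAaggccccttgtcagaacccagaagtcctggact

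The searches covered both strands of the 250 upstream bases. GCGTG began at -20 and, on the opposite strand, at -81 of the Cyp1b1 start, and was present in 27.2% of all 27457 promoters of that length. Promoters were found for 44 of the 51 member symbols, and 12 of the 44 held GCGTG. The longer form TNGCGTG, which contains GCGTG, was in 4.26% of all promoters and in 1 of the 44, that of Cyp1b1, at -22. TATAAA began at -31 in Cyp2c11, at -39 in Cyp1a2 and at -49 in Cyp2e1. It was in 13.1% of all promoters, in 12 of the 44, and in 8 of the 19 with a promoter among the members that were higher in every albumin-high library. A match of letters describes the sequence only.

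Of the 55 members, 12 had no count in any library, among them the phenobarbital-inducible Cyp2b2 and the retinoid- and steroid-metabolizing Cyp2c7. A count was found for 43, 39 reached 1 CPM in at least 1 library and 30 reached 10 CPM. Physiological replicates 1, 2 and 3 held 16, 31 and 25 members at 1 CPM or more, and pathological replicates 1, 2 and 3 held 18, 18 and 27. At 10 CPM the counts were 5, 21 and 21 at physiological and 4, 0 and 24 at pathological pressure. Every albumin-high library therefore held more P450 genes at both levels than every albumin-low library. The summed level of all members was 376, 2375 and 2045 CPM at 1 mmHg and 236, 61.2 and 3397 CPM at 12 mmHg.

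**Figure D1:**
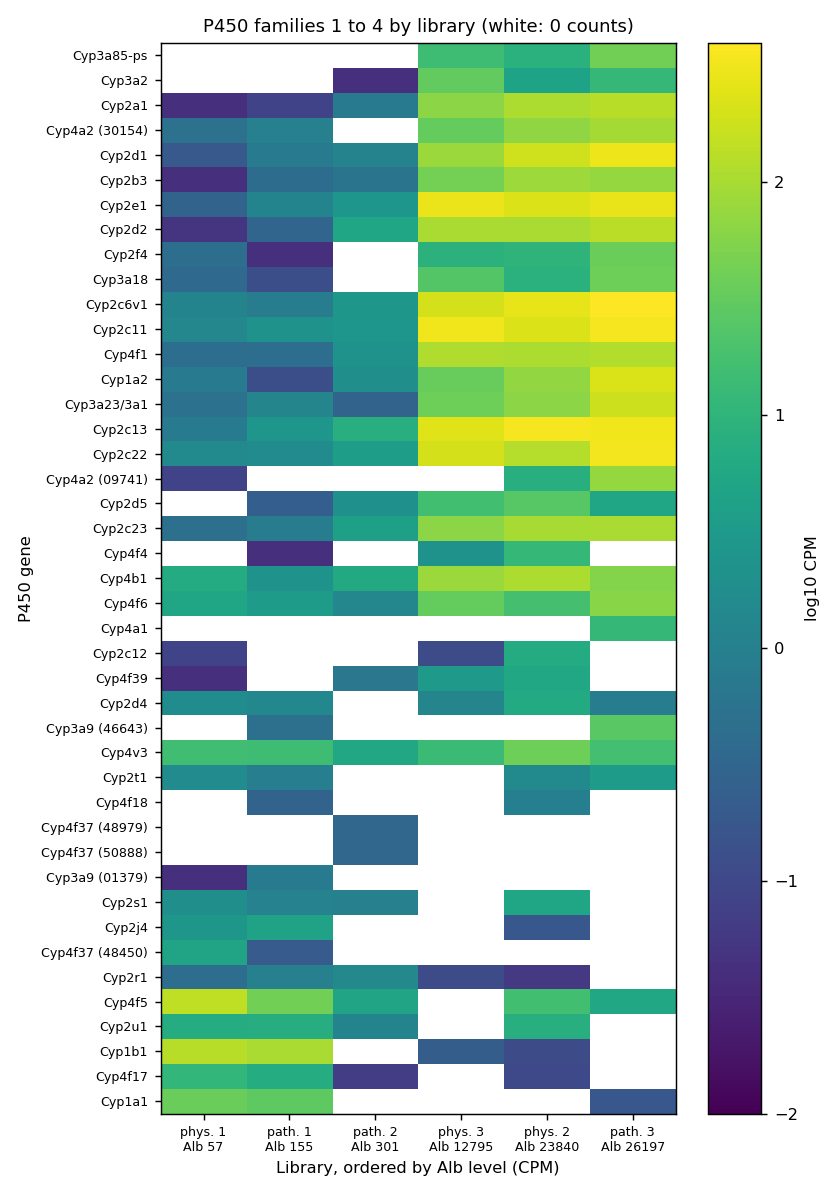
Level of each of the 43 P450 genes with a count (rows, by symbol, with the last 5 digits of the identifier where a symbol occurs more than once) in the 6 libraries (columns, ordered by Alb level), as log10 CPM in color, with white for 0 counts. The upper rows are bright in the 3 albumin-high libraries on the right, and the lowest rows, with Cyp1b1 and Cyp1a1, are bright in physiological replicate 1 and pathological replicate 1.

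Among the 39 members at 1 CPM or more in some library, 21 (53.8%) were higher in every albumin-high than in every albumin-low library. Among the 15104 genes of the series at that level, 2024 (13.4%) were. The opposite order was found for 1 member (2.56%), against 4564 genes (30.2%). The 21 members belonged to the subfamilies Cyp1a, Cyp2a, Cyp2b, Cyp2c, Cyp2d, Cyp2e, Cyp2f, Cyp3a, Cyp4a, Cyp4b and Cyp4f. As the split follows the measured Alb level and not a treatment, these counts are a description with no test. A gene that is read only where hepatocyte RNA is plentiful passes the 1 CPM limit through those libraries alone, which holds for the members and for the other genes alike.

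The Cyp2c subfamily, which hydroxylates steroids, fatty acids and many drugs, took the most P450 reads in the albumin-high libraries. Cyp2c11 (ENSRNOG00000052810) stood at 1.33, 225 and 314 CPM at physiological and at 2.32, 2.58 and 350 CPM at pathological pressure. Cyp2c13 (ENSRNOG00000049464), a male-predominant testosterone hydroxylase, stood at 0.791, 345 and 237 CPM and at 2.65, 7.61 and 313 CPM. Cyp2c6v1, a hydroxylase of diclofenac and other drugs, stood at 1.21, 271 and 204 CPM and at 0.842, 2.71 and 382 CPM. For all 3 genes the albumin-high libraries lay far above the others, and the pressure groups overlapped. Cyp2c22 stood at 1.5, 120 and 199 CPM and at 1.68, 3.72 and 332 CPM. Cyp2c23, an epoxygenase of arachidonic acid, stood at 0.499, 99.5 and 64.4 CPM and at 0.842, 4.10 and 102 CPM. Cyp2c12, known as the form of female rats, had 6.83 CPM in physiological replicate 2, 0.0832 and 0.112 CPM in physiological replicates 1 and 3, and no count at pathological pressure. It was the 1 member whose values did not overlap between the pressures, and it was not among the genes tested. That order rests on 2 counts and 1 count in physiological replicates 1 and 3. The floor of 3 counts is 0.263 CPM in pathological replicate 3, above both values, so the groups cannot be told apart. Among the tested members 0 of 28 had groups that did not overlap, against 544 of 12742 genes tested (4.27%).

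The other hepatocyte-type forms of family 2 followed the same order. Cyp2e1 (ENSRNOG00000012458), the ethanol- and paracetamol-oxidizing enzyme of pericentral hepatocytes, stood at 0.291, 227 and 291 CPM at physiological and at 1.18, 2.66 and 282 CPM at pathological pressure. Cyp2a1, a testosterone hydroxylase, stood at 0.0416, 106 and 64.1 CPM and at 0.0842, 0.803 and 125 CPM. Cyp2d1, which oxidizes debrisoquine, stood at 0.192, 188 and 80.4 CPM and at 0.775, 1.12 and 306 CPM. In each of these genes the lowest albumin-high library lay far above the highest albumin-low library. Of the same subfamily as Cyp2d1, Cyp2d2 and Cyp2d5 stood at 104, 104 and 135 CPM and at 25.0, 15.8 and 5.17 CPM in physiological replicates 2 and 3 and pathological replicate 3. Their highest albumin-low values, in pathological replicate 2, were 5.29 and 2.00 CPM. Cyp2b3, a member of the phenobarbital-related subfamily, stood at 0.0416, 85.3 and 43.1 CPM at physiological and at 0.421, 0.592 and 75.7 CPM at pathological pressure. Reads of the Cyp2d genes were shared among near-identical copies, so their division is uncertain.

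In family 3, whose members oxidize a wide range of drugs and steroids, the order of the albumin-high libraries differed between genes. Cyp3a23/3a1 (ENSRNOG00000032560), the form induced by pregnane-type steroids, stood at 0.535, 62.5 and 38.8 CPM at physiological and at 1.22, 0.296 and 180 CPM at pathological pressure. Cyp3a18 stood at 0.380, 8.53 and 23.5 CPM and at 0.126, 0 and 37.7 CPM. Cyp3a2, a male-predominant testosterone hydroxylase, stood at 0, 4.67 and 31.5 CPM and at 0, 0.0423 and 11.8 CPM. Each was highest in an albumin-high library, but not in the same one. The pseudogene Cyp3a85-ps had no count in any albumin-low library and 8.82, 14.9 and 41.9 CPM in physiological replicates 2 and 3 and pathological replicate 3. Cyp3a9 (ENSRNOG00000046643) was found at 26.2 CPM in pathological replicate 3, at 0.505 CPM in pathological replicate 1 and at 0 elsewhere. A value of 0 in the smallest library allows up to 0.336 CPM at the limit of 3 counts, which covers counting error only. The Cyp3a genes other than Cyp3a9 also had counts that were not whole, as reads were divided among copies.

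The fatty acid hydroxylases of family 4 were divided between the patterns. Cyp4f1 stood at 0.463, 109 and 111 CPM at physiological and at 0.466, 2.33 and 116 CPM at pathological pressure. Cyp4a2 (ENSRNOG00000030154), an omega-hydroxylase under control of the fatty acid receptor encoded by Ppara, stood at 0.541, 69.0 and 32.7 CPM and at 1.01, 0 and 94.6 CPM. A second gene with that symbol (ENSRNOG00000009741) stood at 0.0832, 7.74 and 0 CPM and at 0, 0 and 73.7 CPM. The first of the Cyp4a2 genes was present in every albumin-high library, whereas the second was absent from physiological replicate 3. Cyp4a1, the main lauric acid omega-hydroxylase of rat liver, was found in pathological replicate 3 alone, at 11.8 CPM. Cyp4b1 (ENSRNOG00000055078), which is also known from lung, stood at 6.70, 109 and 80.2 CPM and at 2.32, 6.22 and 56.4 CPM. It was 1 of 5 members at 1 CPM or more in all 6 libraries, the others being Cyp2c11, Cyp2c22, Cyp4f6 and Cyp4v3. Cyp4f6 stood at 5.34, 17.6 and 32.6 CPM and at 3.36, 1.35 and 60.4 CPM. Cyp4v3 (ENSRNOG00000042426), the rat counterpart of the fatty acid hydroxylase lost in a human corneoretinal dystrophy, varied least of these, at 15.7, 38.4 and 13.4 CPM and at 14.9, 5.84 and 16.9 CPM. Its albumin-high and albumin-low values overlapped.

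**Figure D2:**
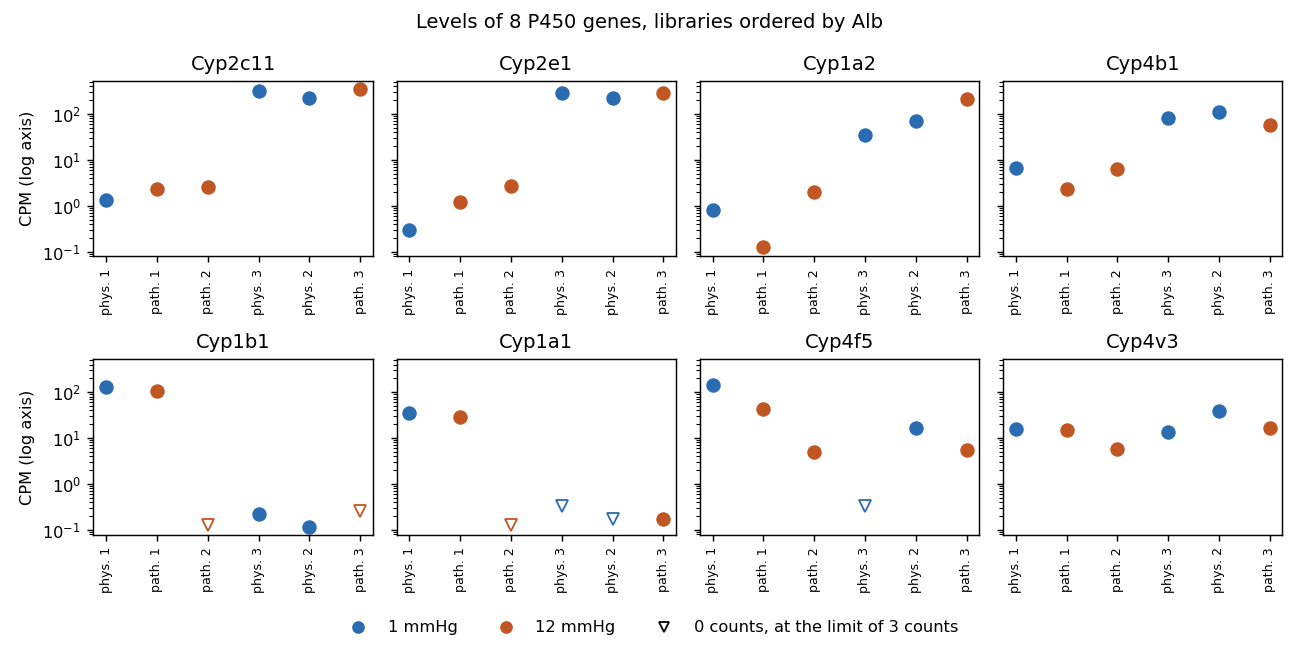
CPM on a log axis of 8 P450 genes in the 6 libraries, ordered by Alb level from left to right, with physiological libraries in blue and pathological libraries in orange. Open triangles mark libraries with 0 counts and stand at the level of 3 counts. Cyp2c11, Cyp2e1, Cyp1a2 and Cyp4b1 are high in the 3 libraries on the right, Cyp1b1 and Cyp1a1 in physiological replicate 1 and pathological replicate 1, and Cyp4v3 lies between 5.84 and 38.4 CPM throughout.

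A small group showed the reverse. Cyp1b1 (ENSRNOG00000040287) had 3131, 2 and 2 counts in physiological replicates 1, 2 and 3 and 2487, 0 and 0 counts in pathological replicates 1, 2 and 3, or 130, 0.117 and 0.224 CPM and 105, 0 and 0 CPM. Cyp1a1 (ENSRNOG00000019500), the polycyclic hydrocarbon hydroxylase induced through the aryl hydrocarbon receptor, had 34.7, 0 and 0 CPM at 1 mmHg and 28.9, 0 and 0.175 CPM at 12 mmHg. Both genes were thus high in replicate 1 of each pressure and nearly absent from the other 4 libraries, albumin-low pathological replicate 2 included. Against pathological replicate 2, which had no count, Cyp1b1 was at least 825-fold higher in pathological replicate 1 and at least 1027-fold higher in physiological replicate 1, with the floor of 3 counts set per library. Cyp1a1 was at least 228-fold and at least 274-fold higher in the same comparisons. Physiological replicate 1 and pathological replicate 1 also had the most genes of any kind with a count, 17230 and 16797, against 10261 to 13746 elsewhere. Pathological replicate 2 had 13746 such genes, although its total of 23649036 counts was close to the 23754767 of pathological replicate 1. The part of this difference in the Cyp1 levels was not tested. Cyp2j4, an arachidonic acid epoxygenase, stood at 2.75, 0.175 and 0 CPM and at 4.42, 0 and 0 CPM. Cyp4f17 stood at 11.1, 0.103 and 0 CPM and at 7.14, 0.0677 and 0 CPM.

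These 4 genes, singled out after their values were seen, were the members at 1 CPM or more in physiological replicate 1 and pathological replicate 1 and below it in the other 4 libraries. The same held for 573 of 15104 genes (3.79%). The ratio of Cyp1a1 to Cyp1b1 counts was 0.266 (95% exact interval 0.246 to 0.288) in physiological replicate 1 and 0.276 (0.253 to 0.300) in pathological replicate 1, so the libraries did not differ in it beyond counting error. Cyp4f5, a further fatty acid hydroxylase, was highest in the same libraries, at 142 and 42.6 CPM, and stood at 16.2, 0, 4.90 and 5.52 CPM in physiological replicates 2 and 3 and pathological replicates 2 and 3. In the RefSeq gene order of GRCr8, Cyp4f17, Cyp4f5 and Cyp4f37 follow each other with no annotated gene between them, and Cyp4f1 and Cyp4f6 are adjacent to each other, with 12 annotated genes between Cyp4f1 and Cyp4f4. Cyp4f17 and Cyp4f5 were thus highest in physiological replicate 1 and pathological replicate 1, and Cyp4f1 and Cyp4f6 in the albumin-high libraries. Of the Cyp4f37 genes, 1 (ENSRNOG00000048450) had 4.84 CPM in physiological replicate 1. These Cyp4f genes had counts that were not whole, so that part of their reads was assigned among copies.

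Some markers of several cell types were highest in the same libraries as Cyp1b1 and Cyp1a1, but most were not. The 8 leukocyte markers summed to 38.2 and 58.3 CPM in physiological replicate 1 and pathological replicate 1, nearly all from Ptprc, the pan-leukocyte phosphatase, at 36.0 and 57.5 CPM. In the other 4 libraries the sum was between 0 and 3.43 CPM. The T cell marker Cd3g was at 0 in every library, and 3 and 4 of the 8 markers were at 0 in physiological replicate 1 and pathological replicate 1, against 6 to 8 elsewhere. Of the 12 macrophage markers, 4 were also highest in these libraries, Lyz2 at 240 and 284 CPM against 4.14 to 32.8 CPM elsewhere, Cd163, Cd68 and Vsig4. The summed macrophage level was not, at 826 and 883 CPM. Also highest there were 3 of the 13 sinusoidal endothelial markers, Tek, Cdh5 and Mrc1, and 1 of the 12 stellate markers, Reln, at 655 and 501 CPM. The summed sinusoidal endothelial level was 3154 and 1636 CPM, against 922 to 5884 CPM elsewhere. Other markers were far lower there than in the albumin-high libraries. Endothelial Stab2 had 10.2 and 3.28 CPM against 136 to 210 CPM, and macrophage Clec4f had 9.99 and 11.8 CPM against 141 to 279 CPM. How many of all genes were highest in both libraries was not counted. The part of these cells in the Cyp1 levels was not tested.

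Members detected at moderate levels in both kinds of library included Cyp2u1, a fatty acid hydroxylase with a wide tissue range, at 7.08, 7.65 and 0 CPM at 1 mmHg and 7.32, 1.18 and 0 CPM at 12 mmHg. Cyp2s1, an epithelial form that is regulated by dioxin, stood at 1.96, 5.20 and 0 CPM and at 1.09, 1.01 and 0 CPM. Both genes were absent from the same 2 libraries, physiological replicate 3 and pathological replicate 3, which had the lowest totals, and were above 1 CPM in the other 4. Cyp2r1, a vitamin D 25-hydroxylase, was the member lower in every albumin-high library, at 0 to 0.112 CPM there and at 0.458 to 1.48 CPM in the others. Cyp4f39, Cyp4f4 and Cyp2f4, by contrast, were below 1 CPM in every albumin-low library. Cyp4f39, an ultra-long-chain fatty acid hydroxylase of skin, stood at 0.0416, 5.78 and 3.14 CPM and at 0, 0.677 and 0 CPM. Cyp4f4 stood at 0, 11.8 and 2.26 CPM and at 0.0421, 0 and 0 CPM. Cyp2f4, the rat counterpart of a periportal form of mice, stood at 0.458, 10 and 8.85 CPM and at 0.0421, 0 and 36.4 CPM.

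The make-up of P450 reads differed accordingly. A share of reads depends on transcript length as well as abundance, so shares are compared between libraries and not between genes. Cyp2c genes held 44.9% of all member counts in physiological replicate 2 (95% exact binomial interval 44.5 to 45.4), 49.8% (49.0 to 50.5) in physiological replicate 3 and 43.6% (43.1 to 44.0) in pathological replicate 3. In pathological replicate 2, with few P450 counts in all, the share was 33.8% (31.4 to 36.3). In physiological replicate 1 and pathological replicate 1 it was 1.44% (1.20 to 1.71) and 3.53% (3.06 to 4.05). Pathological replicate 2 was therefore nearer to the albumin-high libraries in its P450 make-up although its Alb level was 301 CPM. Cyp1b1 held 34.7% (33.7 to 35.7) of member counts in physiological replicate 1 and 44.3% (43.0 to 45.6) in pathological replicate 1, and Cyp4f genes held 43.6% (42.6 to 44.6) and 22.9% (21.8 to 24.0). These intervals cover counting error only.

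**Figure D3:**
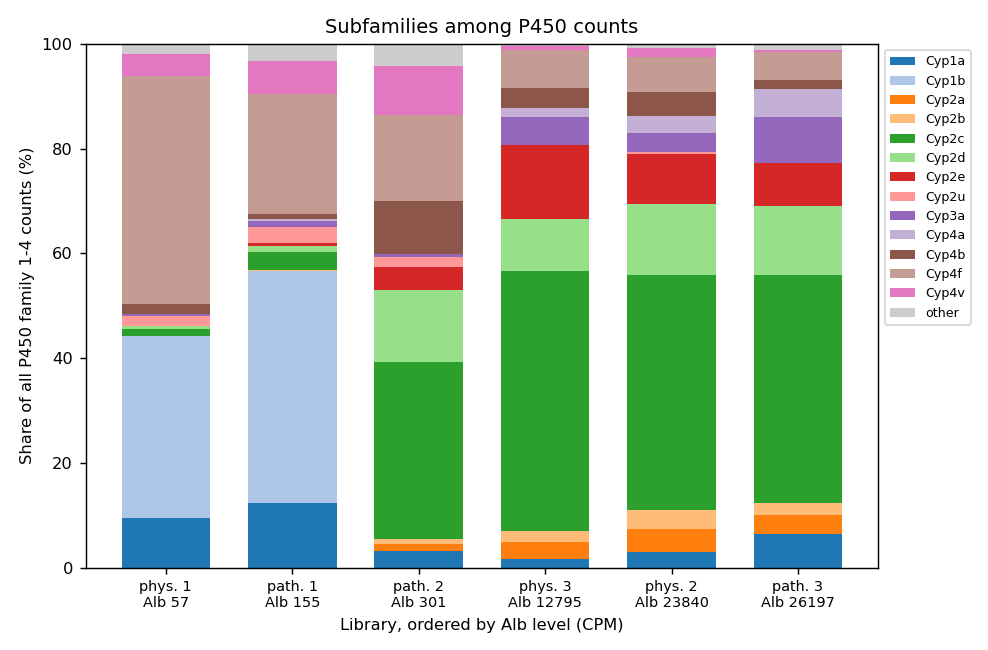
Share in percent of all P450 family 1 to 4 counts held by each subfamily (stacked bars) in the 6 libraries, ordered by Alb level, with subfamilies under 3% in every library joined as other. Cyp1b and Cyp4f fill most of the bars of physiological replicate 1 and pathological replicate 1, and Cyp2c holds 33.8% to 49.8% in the other 4 libraries.

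Levels were next set against Alb in the same library, which removes the hepatocyte RNA content as far as Alb measures it. Of the 21 members that were higher in every albumin-high library, 15 had a count in all 6 libraries. Their CPM ranged over a median of 454-fold between the lowest and the highest library (44.6-fold to 3009-fold), near the 463-fold range of Alb itself. The 3009-fold range, that of Cyp2a1, rests on 1 count in physiological replicate 1. These members were chosen because they followed the Alb split. A wide range in CPM, and a narrower one against Alb, are therefore partly fixed by that choice. Per 1000 Alb counts the median range was 4.86-fold (2.12-fold to 128-fold), and relative to the summed hepatocyte markers 7.45-fold (2.52-fold to 49.4-fold). Cyp2c13 varied least, with 14.0, 14.5 and 18.5 counts per 1000 Alb counts at physiological and 17.1, 25.3 and 11.9 at pathological pressure. Cyp2c11 had 23.5, 9.45 and 24.6 and then 14.9, 8.57 and 13.3, and Cyp2e1 had 5.15, 9.54 and 22.7 and then 7.61, 8.85 and 10.7. The pressures overlapped in all 3 genes. The albumin-low libraries overlapped with the albumin-high ones for Cyp2c13 and Cyp2c11 and lay below them for Cyp2e1. In the albumin-low libraries these values rest on few reads, with 7 counts of Cyp2e1 in physiological replicate 1 as an example. Cyp4f6 was the member with the 128-fold range, at 94.3 counts per 1000 Alb counts in physiological replicate 1 and 0.740 in physiological replicate 2.

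Members outside this pattern did not keep a ratio to Alb. Cyp4v3 varied 6.59-fold in CPM and 430-fold per Alb, from 277 counts per 1000 Alb counts in physiological replicate 1 to 0.645 in pathological replicate 3. Cyp1b1 had 2304 and 676 counts per 1000 Alb counts in physiological replicate 1 and pathological replicate 1, against 0 to 0.0175 in the others. Cyp4f5 had 2510 and 275, against 0 to 16.3. For these genes the order over libraries differed from that of the hepatocyte-type members on both scales.

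**Figure D4:**
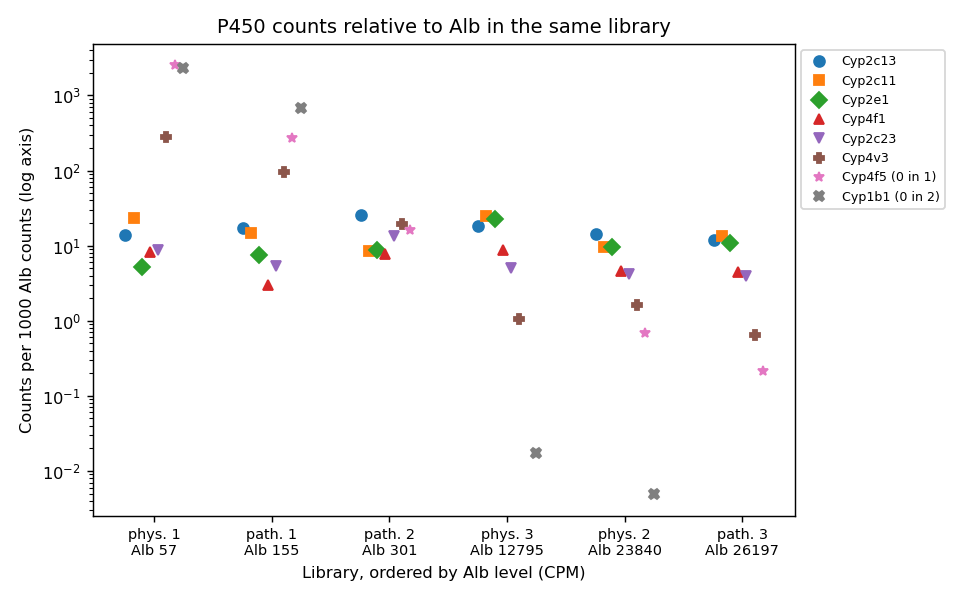
Counts of 8 P450 genes per 1000 Alb counts of the same library on a log axis, with libraries ordered by Alb level and values of 0 left out as the legend states. Cyp2c13 stays between 11.9 and 25.3 in all 6 libraries, while Cyp1b1 ranges from 2304 in physiological replicate 1 to 0 in 2 libraries.

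Zonal forms were compared as ratios of counts within a library, and the ratios were then compared between the albumin-high libraries, where each gene had enough reads. Cyp2e1 and Cyp1a2 are known as pericentral genes, and Cyp2f4, Pck1 (gluconeogenesis) and Hal (histidine breakdown) as periportal ones. The ratio of Cyp2e1 to Cyp2f4 was 22.6 (95% exact interval 19.4 to 26.5) in physiological replicate 2 and 32.8 (26.3 to 41.6) in physiological replicate 3, against 7.73 (6.98 to 8.59) in pathological replicate 3. Cyp2e1 to Pck1 was 0.963 (0.922 to 1.01) and 0.829 (0.786 to 0.873), against 0.450 (0.432 to 0.469). Cyp2e1 to Hal was 5.25 (4.85 to 5.69) and 5.29 (4.80 to 5.83), against 2.03 (1.91 to 2.16). Other periportal genes gave other orders. Over the 10 genes of the periportal list with a count in each of these libraries, the ratio of Cyp2e1 was lower in the pathological library than in both physiological ones for 6, between them for 3 and higher for 1. Asl, of the urea cycle, was the 1, at 4.12 and 3.31 against 6.89. Its level did not follow the Alb split, at 65.8, 55.2 and 87.7 CPM at 1 mmHg and 71.1, 40.0 and 40.9 CPM at 12 mmHg. Its reads may therefore not reflect periportal hepatocytes. The 10 genes also include Alb, which sets the split, and Cdh1. Pericentral Cyp1a2 (ENSRNOG00000016173) stood at 0.796, 70.5 and 34.4 CPM at 1 mmHg and 0.126, 1.99 and 215 CPM at 12 mmHg. Its ratio to Cyp2e1 was 0.310 (0.290 to 0.331) and 0.118 (0.105 to 0.133) in physiological replicates 2 and 3 and 0.764 (0.725 to 0.806) in pathological replicate 3. In albumin-low pathological replicate 2, on 47 and 63 counts, it was 0.746 (0.500 to 1.11). Cyp1a2 to Pck1 was 0.299 (0.280 to 0.319) and 0.0981 (0.0869 to 0.110), against 0.344 (0.329 to 0.360), while Cyp1a2 to Cyp2f4 was 7.02 (5.98 to 8.28) and 3.89 (3.03 to 5.04), against 5.91 (5.33 to 6.57). Over the same 10 periportal genes the ratio of Cyp1a2 was higher in the pathological library than in both physiological ones for 7, between them for 3 and lower for 0. With 1 albumin-high library at pathological pressure there is no replicate check of these differences, and the intervals cover counting error only.

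Further ratios varied as well. Cyp3a23/3a1 to Cyp2e1 was 0.275 (0.257 to 0.294) and 0.134 (0.119 to 0.150) in physiological replicates 2 and 3 and 0.640 (0.605 to 0.676) in pathological replicate 3. Cyp2c11 to Cyp2e1 was steadier, at 0.991 (0.947 to 1.04), 1.08 (1.02 to 1.14) and 1.24 (1.19 to 1.30). Among the male-predominant forms, Cyp2c13 to Cyp2c11 was 1.53 (1.47 to 1.59), 0.753 (0.712 to 0.797) and 0.894 (0.855 to 0.936), and Cyp3a2 to Cyp2c11 was 0.0207 (0.0164 to 0.0259), 0.1 (0.0883 to 0.113) and 0.0338 (0.0283 to 0.0401). For both ratios the pathological library lay between the physiological ones.

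The study's own comparison asks how raised pressure alters expression in these cells. No P450 gene passed the test. After the low-count filter 28 of the 55 members were tested, and the 27 left out included Cyp1a1 and Cyp1b1. With edgeR's quasi-likelihood test 0 of 28 members passed an adjusted p of 0.05, as did 0 of the 12742 genes tested (0%), with 33 of these at an unadjusted p under 0.05. No member had an unadjusted p under 0.05, the smallest being 0.236 with an edgeR adjusted p of 1. DESeq2 called 0 members, with 5 adjusted p not given, and 1 gene in all, and limma-voom called 0 genes (159 had an unadjusted p under 0.05). Positive fold changes were fitted for 8 members and negative ones for 20, with a median log2 fold change of -0.67, against 0.05 over all genes tested. That split depended on single libraries, with 17 positive and 17 negative without pathological replicate 2, 16 and 19 without physiological replicate 3, 14 and 20 without physiological replicate 2, 13 and 17 without pathological replicate 1 and 8 and 23 without physiological replicate 1. The standard errors ran from 1.18 to 3.03 with a median of 2.25. In counts simulated gene by gene at the common dispersion estimated from these libraries, the same test recovered 0 of 95 genes changed 4-fold. The simulation held neither the spread of single genes nor the shared Alb split, so it does not measure what could be found for each member.

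The fold changes of the members tested after the low-count filter, given as pathological against physiological, all had 95% intervals that included 0. Cyp1a2 averaged 35.2 ± 34.9 CPM at 1 mmHg and 72.4 ± 124 CPM at 12 mmHg (SD, n = 3 each), with a log2 fold change of 1.04 (95% CI -4.0 to 6.09, edgeR adjusted p = 1). Cyp3a23/3a1 measured 34.0 ± 31.3 and 60.5 ± 104 CPM, with a log2 fold change of 0.81 (-4.17 to 5.80). These were the tested members with the smallest unadjusted p on the positive side. On the negative side, Cyp4f39 measured 2.99 ± 2.87 and 0.226 ± 0.391 CPM, with a log2 fold change of -3.64 (-10.17 to 2.90). Cyp4b1 measured 65.4 ± 52.9 and 21.7 ± 30.2 CPM, with a log2 fold change of -1.62 (-5.04 to 1.79). Cyp2e1 measured 173 ± 153 and 95.1 ± 161 CPM, with a log2 fold change of -0.95 (-6.04 to 4.14). The standard deviation was about as large as the mean or larger in each of these groups. Each pressure group joined albumin-high and albumin-low libraries. The narrowest interval was that of Cyp4v3, at 22.5 ± 13.8 and 12.5 ± 5.88 CPM and a log2 fold change of -0.85 (-3.58 to 1.88).

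Of the other fixed genes, Cyp2f4 and Cyp2d1 had positive log2 fold changes of 0.87 (-5.26 to 7.01) and 0.21 (-5.04 to 5.46), and Cyp3a18 had 0.09 (-5.83 to 6.01). Negative values were fitted for Cyp3a2, at -1.80 (-8.70 to 5.10), Cyp2s1, at -1.68 (-7.32 to 3.96), Cyp4f1, at -0.96 (-5.74 to 3.82), Cyp2u1, at -0.80 (-6.79 to 5.19), Cyp2b3, at -0.75 (-6.03 to 4.53), and Cyp2c11, at -0.70 (-5.47 to 4.06). Cyp2c23 had -0.64 (-5.09 to 3.81), Cyp2a1 had -0.45 (-6.03 to 5.13) and Cyp4a2 (ENSRNOG00000030154) had -0.10 (-5.55 to 5.35). Without the low-count filter, Cyp1b1, at 43.6 ± 75.1 and 34.9 ± 60.4 CPM, had a log2 fold change of -0.23 (-5.27 to 4.80), and Cyp1a1 had -0.17 (-6.02 to 5.69). In that run Cyp4a1 had 9.30 (-0.56 to 19.16) and Cyp4f4 had -7.87 (-16.13 to 0.40). Cyp3a9 (ENSRNOG00000046643) had 10.47 (1.46 to 19.48) and was the 1 member with an unadjusted edgeR p under 0.05. Its value rests on 12 and 299 counts in pathological replicates 1 and 3, with none elsewhere. The share of all genes at that p was not counted for this run. None of these genes passed the test.

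**Figure D5:**
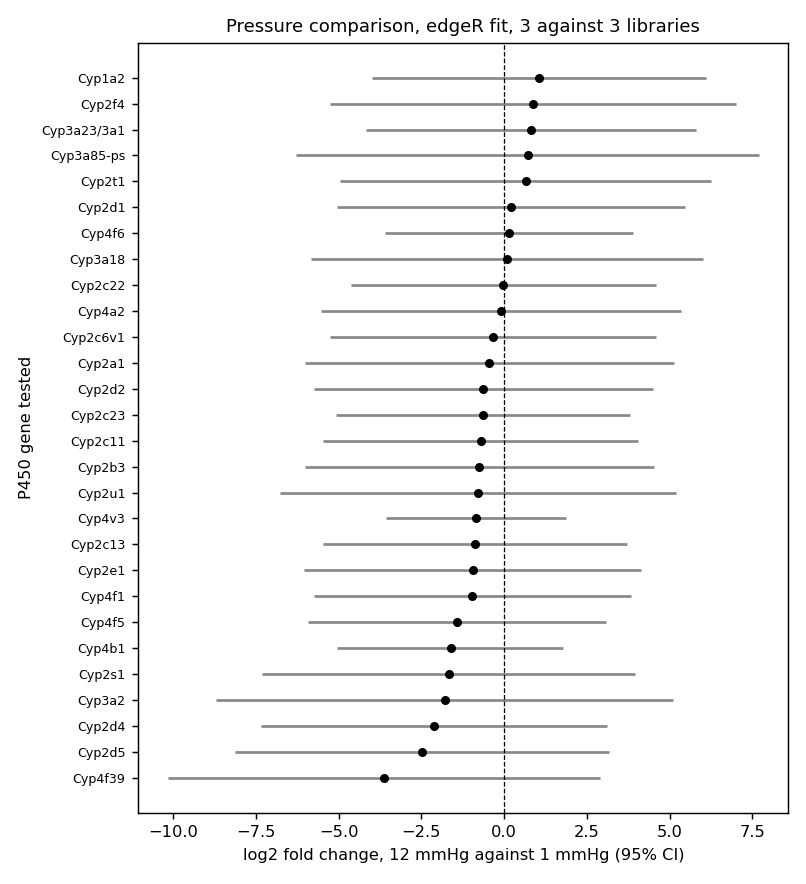
Log2 fold change at 12 mmHg against 1 mmHg (points) with its 95% confidence interval (lines) for the 28 P450 genes tested with edgeR on 3 against 3 libraries, sorted by fold change, with a dashed line at 0. All intervals cross 0, and the values run from -3.64 for Cyp4f39 to 1.04 for Cyp1a2.

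Pathological replicate 3 carried much of the pathological mean. Without it, the pathological libraries left were both albumin-low, while physiological replicates 2 and 3 were albumin-high. The parts of pressure and Alb level in that run were not told apart. In that run, 15 of 34 members tested had an unadjusted p under 0.05, 29 of the 34 had negative fold changes, and 0 passed the adjusted threshold. The share of all genes at that unadjusted p was not counted for this run, so the 15 are no result about P450 genes. The log2 fold change of Cyp1a2 was then -5.01 and that of Cyp3a23/3a1 -5.73, both opposite in sign to the values from all 6 libraries. Within the albumin-high libraries, pathological replicate 3 exceeded both physiological libraries in 15 of the 21 hepatocyte-type members, lay between them in 4 and below both in 2. Within the albumin-low libraries, physiological replicate 1 exceeded both pathological libraries in 4 of the 21, lay between them in 6 and below both in 11. Alb was likewise highest in pathological replicate 3 among the albumin-high libraries, at 26197 against 23840 and 12795 CPM. Among the albumin-low libraries it was lowest in physiological replicate 1, at 56.6 against 155 and 301 CPM. How many of all genes had these orders was not counted. No test was run within either set, where 1 of the pressures has 1 library.

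The regulators and partners of the P450 enzymes came from lists covering the same pathway. None of the 11 tested of 18 receptors and liver transcription factors passed the threshold, with 4 positive and 7 negative fold changes and a median of -0.20. Nr1i2, the pregnane X receptor that drives Cyp3a genes, stood at 0.0416, 22.7 and 56.0 CPM at physiological and at 0, 0 and 72.0 CPM at pathological pressure. Hnf4a, the hepatocyte nuclear factor, stood at 0.166, 153 and 50.2 CPM and at 0.884, 2.16 and 156 CPM. Both ran with the hepatocyte-type P450 genes. Ppara stood at 1.62, 0 and 0 CPM and at 1.14, 0 and 0 CPM, although Cyp4a2 was read in the albumin-high libraries. Nr1i3, the constitutive androstane receptor that drives Cyp2b genes, stood at 1.12, 9.11 and 0 CPM and at 1.05, 0 and 4.38 CPM.

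The aryl hydrocarbon receptor genes had their highest levels where Cyp1b1 and Cyp1a1 did. Ahr stood at 177, 7.83 and 0.224 CPM at physiological and at 132, 40.9 and 6.56 CPM at pathological pressure, and its partner Arnt at 70.1, 12.4 and 0 CPM and at 54.6, 11.2 and 0.0875 CPM. Its target Ahrr, a repressor of the receptor, stood at 12.2, 0 and 0 CPM and at 9.35, 0 and 0 CPM. The target Aldh3a1, an aldehyde dehydrogenase, stood at 4.91, 0 and 0 CPM and at 7.11, 0 and 0 CPM, so that both targets shared the on and off pattern of Cyp1b1. Tiparp, a further target, stood at 131, 13.4 and 0.560 CPM and at 122, 48.2 and 0.175 CPM. Nqo1, a quinone reductase that other stress pathways induce as well, was present in every library, at 923, 463 and 732 CPM and at 971, 990 and 293 CPM. Cyp1a2, which is a target too, was instead highest in pathological replicate 3. Of the 8 matched genes of this list 4 were tested, with positive fold changes, a median of 0.58 and none past the threshold. The same GCGTG core marked in the Cyp1b1 promoter was found in that of Ahrr, at -142, -117 and -57, and on the opposite strand in that of Tiparp, at -136. The search listed no match for Aldh3a1, and positions were not looked up for Cyp1a1. GCGTG was in 27.2% of all promoters, so these matches describe the sequences only.

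Of the 9 redox partners, 8 were read in all libraries, and Fdxr had no count in physiological replicate 3. Por stood at 275, 93.2 and 46.3 CPM at physiological and at 329, 289 and 37.5 CPM at pathological pressure, and was thus higher in the albumin-low libraries. Cyb5a, the cytochrome b5 that supports many P450 reactions, stood at 38.7, 310 and 573 CPM and at 32.5, 85.0 and 664 CPM and was higher in the albumin-high ones. None of the 9 redox genes passed, with 5 positive and 4 negative fold changes. The 12 genes of heme synthesis and breakdown, which supply and recycle the P450 cofactor, had 7 positive and 5 negative fold changes. Alas1, the rate-limiting enzyme of heme synthesis, stood at 141, 126 and 50 CPM and at 134, 165 and 79.6 CPM. Of the 9 tested genes of other P450 families 4 were positive and 5 negative, and of the 17 tested conjugation and epoxide enzymes 5 were positive and 12 negative. In the conjugation list 11 of the 19 matched genes were higher in every albumin-high library, against 13.4% of the genes at 1 CPM or more in some library. The same order was found for 9 of the 14 matched periportal genes and 5 of the 14 matched pericentral genes. It was found for 7 of the 13 sinusoidal endothelial markers and 1 of the 9 redox partners. The opposite order was found for 1 periportal, 2 pericentral and 2 redox genes, against 30.2% of the genes at 1 CPM or more in some library. The tested pericentral genes had 4 positive and 5 negative fold changes, the periportal genes 5 and 7, the P450 genes that differ between male and female rats 0 and 5, and the fatty acid P450 genes 1 and 7. These last lists share members with the P450 families described. No list member passed the threshold.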

How the data were processed

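PolyA RNA was measured by single-end RNA sequencing on an Illumina HiSeq2500, per the labels' protocols. The files the authors deposited hold, for each library, expected counts of every gene, that is, estimated reads with no normalization, per the file headers. The submitters' processing notes name STAR, RSEM and limma without versions. Genome build, annotation and strand setting were not given in the sources used here, so antisense and overlapping genes are uncertain. In each library 4.33% to 10.4% of genes carried a fraction of a read, as happens where reads are divided among similar genes, and 23 of the 55 members had such a value.

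Levels are CPM, computed here from the deposited expected counts and each library's unscaled total. Rounded counts were compared between pressures with the quasi-likelihood test of edgeR 4.0.16 (R 4.3.3), using TMM scaling (factors 0.790 to 1.271), the filterByExpr filter, no covariate, two-sided p-values and Benjamini-Hochberg adjustment over all 12742 genes tested at a threshold of 0.05. Fold changes therefore rest on scaled and the printed CPM on unscaled totals. Ratios carry exact intervals at 95% confidence, and a count of 0 was given a floor of 3 counts per library. Intervals and floors cover counting error only. Samples were grouped by the labelled pressure, and replicates were numbered in deposition order. The split at 1000 CPM of Alb was used for description only. Levels of different genes were not ranked, as transcript lengths were not used here. Promoters and gene order came from RefSeq tables of assembly GRCr8, matched by symbol.

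All members were counted. Fold changes were given for 27 symbols chosen by role, where tested (18 genes together with the 2 members of smallest unadjusted p in each direction), and values by library for these and for members at 10 CPM or more in some library. The members, lists and rules were chosen with earlier results of these data known. Alternatives were DESeq2 1.42.0 and its size factors, limma-voom (limma 3.58.1), no low-count filter, a term for Alb, leaving out each library and other detection limits. A level relative to the hepatocyte markers, a block of neighbouring sample numbers, and leaving out libraries from the counts by library, were added after seeing the data. Simulated counts served to check the edgeR fit of pathological against physiological libraries. Of genes altered 2-fold it called 57 of 96, of genes altered 4-fold 99 of 100, and of unchanged genes 11 of 12467, at a dispersion of 0.05. At the estimated dispersion (biological coefficient of variation 1.393) it called 0 of 95 genes altered 4-fold.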

Additional observations from a re-analysis of the deposited data

How the results depend on the processing

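No member and no gene of the other lists passed the threshold under any alternative run. The sign of a fold change was less firm. Of the 18 named genes tested, 11 turned sign under at least 1 alternative and 7 under none. With 1 library left out, log2 fold changes ran from -5.01 to 1.86 for Cyp1a2, from -6.98 to 0.19 for Cyp2a1, from -6.47 to 0.05 for Cyp2b3, from -6.39 to 0.18 for Cyp2c11, from -4.48 to -0.05 for Cyp2c23 and from -6.62 to 1.15 for Cyp2d1. They ran from -8.16 to 1.45 for Cyp2f4, from -7.68 to 1.63 for Cyp3a18, from -9.01 to 0.87 for Cyp3a2, from -5.73 to 1.43 for Cyp3a23/3a1 and from -6.36 to 0.75 for Cyp4a2. Each of these lowest values came without pathological replicate 3. With limma-voom the values of Cyp1a2, Cyp2b3, Cyp2f4, Cyp3a18 and Cyp3a23/3a1 were -0.90, 0.04, -2.59, -2.26 and -0.44. With a term for Alb those of Cyp2a1, Cyp2b3, Cyp2c23, Cyp2f4 and Cyp3a18 were 0.14, 0.31, 0.27, -1.48 and -1.55. Cyp4a2 had 0.05 both with DESeq2 and with its size factors, under which the median over all genes was 0.15 in place of 0.05. The cause of these changes was not tested.

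Members present in all albumin-high and no albumin-low libraries numbered 6 at a limit of 1 CPM, 2 at 0.1 CPM and 16 at 10 CPM. Those present in physiological replicate 1 and pathological replicate 1 alone numbered 4, 1 and 2 at the same limits. Members higher in every albumin-high library numbered 21 in CPM, 6 relative to Alb and 7 relative to the hepatocyte markers, and between 21 and 24 in CPM with 1 library left out. The sample numbers in the labels are 2, 11 and 22 at physiological and 3, 9 and 23 at pathological pressure, and no label states that neighbouring numbers pair. Deviations from the group means correlated across genes at 0.642, -0.214 and 0.391 for 2 with 3, 11 with 9 and 22 with 23, so the numbers were not taken as pairs. With neighbouring numbers as a replicate block, an alternative added after seeing the data, edgeR again called 0 members and 0 genes, with 31 genes at an unadjusted p under 0.05. Under this block 27 of 28 members had negative fold changes, and Cyp1a2, Cyp2f4, Cyp3a18 and Cyp3a23/3a1 turned to -1.98, -3.16, -2.20 and -0.0. The share of all genes with negative fold changes was not counted for this run. The block also joins sample 11, which was albumin-high, with sample 9, which was albumin-low. The 27 are therefore no result about P450 genes. The number of reads limits what can be seen in the smallest library, where 3 counts equal 0.336 CPM.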
